A study of Mus musculus with 6 samples.

Results

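Collagens and extracellular matrix proteins were followed across the hippocampi of Phf21bΔ4/Δ4 and Phf21b+/+ mice. Members were taken by symbol: every collagen alpha chain and laminin chain, the nidogens, the fibulins, the fibrillins, decorin (*Dcn*), lumican (*Lum*), biglycan (*Bgn*), fibronectin (*Fn1*), and *Sparc*. The rule took 60 of the 14477 genes in the expression matrix, and 69 symbols of the GENCODE annotation fit it, so 9 were not analysed here. One of the 60, *Col4a3bp*, shares the start of a collagen symbol but encodes a ceramide transfer protein and not a matrix protein, which leaves 59 matrix members. The rule reads symbols and no measured value, but it was written with earlier results of these data known.

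RNA from the hippocampus of 6 untreated mice was sequenced as 1 library per mouse after removal of ribosomal RNA. Phf21bΔ4/Δ4 mice (KO2, KO3, and KO6 in the labels) carry a CRISPR/Cas9 deletion in the fourth exon of *Phf21b*, a PHD finger reader of histone marks, in every tissue of the body and on both alleles. Phf21b+/+ mice (WT5, WT7, and WT8) are wild type at this gene, and the line was kept on a C57BL/6J background with young adult male and female littermates used in the study. The labels give no sex, age, litter, dissection record, or batch of a single mouse, so the p-values here measure the spread between these 6 mice only.

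Most collagens and laminins in the brain are made by cells of vessels, meninges, and choroid plexus, and only a few by neurons or glia. Type IV collagen and laminin each form a sheet, nidogens link both sheets, and the whole is the basement membrane that surrounds endothelial cells and pericytes and lines the brain surface. Fibrillar collagens such as types I and III form the fibers of meningeal connective tissue, small leucine-rich proteoglycans coat those fibers, and type VI collagen forms beaded filaments between them. In bulk tissue, fewer cells of a type and less RNA per cell cannot be told apart.

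Each library held from 20495605 to 24881257 recovered reads on all 14477 genes of the matrix. In these libraries, 3 reads corresponded to a CPM (reads scaled to the effective library size) of 0.127 to 0.143, which covers counting error only. *Phf21b* was at 2.15, 3.57, and 3.87 CPM in KO2, KO3, and KO6 and at 6.50, 5.23, and 6.47 CPM in WT5, WT7, and WT8. Its log2 fold change of -0.96 (SE 0.26) had an FDR of 0.14 by limma, so it was not past the threshold, although the genotypes did not overlap, and a value for the whole gene cannot show the deleted exon. Summed markers of cells that make matrix differed between mice. The 13 listed markers of meningeal fibroblasts summed to 165, 150, and 163 CPM in KO2, KO3, and KO6 and to 401, 564, and 325 CPM in WT5, WT7, and WT8. All 13 had a negative log2 fold change, and only *Ptgds*, a prostaglandin D synthase, was past both thresholds (-1.38). *Ptgds* made up most of this sum in each mouse, at 121, 117, and 129 CPM and at 323, 387, and 255 CPM in the same order. The 14 markers of choroid plexus epithelium summed to 93.6, 29.6, and 48.3 CPM in the KO mice but to 38.8 CPM in WT5, 16384 CPM in WT7, and 1041 CPM in WT8, and only *Otx2* among them was past both thresholds (-5.30). The 11 endothelial markers summed to 271, 211, and 222 CPM in the KO mice and to 200, 211, and 150 CPM in the WT mice, and the 10 listed markers of pericytes and smooth muscle to 311, 246, and 179 CPM and to 181, 148, and 127 CPM, with none past the thresholds. The 11 markers of the medial habenula, a neighbor of the hippocampus, summed to between 6.79 and 10.5 CPM in the KO mice and to between 168 and 231 CPM in the WT mice, and all 11 were past both thresholds. The 13 hippocampal neuron markers were present in every mouse, with sums between 1754 and 2763 CPM, and *Fibcd1* alone was past both thresholds (1.51). Markers of dentate granule cells on that list, named after their values were seen, split KO2 and KO3 from KO6. *Dsp* was at 14.8, 19, and 97.1 CPM in KO2, KO3, and KO6 and at 138, 108, and 96.3 CPM in WT5, WT7, and WT8. *C1ql2* was at 25.6, 22.4, and 81.6 CPM and at 111, 99.9, and 91.3 CPM, and *Prox1* at 50.4, 44.4, and 110 CPM and at 149, 115, and 134 CPM. In these genes KO6 lay nearer the wild-type mice than KO2 and KO3 did, though below each of them in *C1ql2* and *Prox1*. In other markers of that list KO6 lay above every wild-type mouse. For *Wfs1*, KO2, KO3, and KO6 were at 37.2, 162, and 210 CPM against at most 56.2 CPM in the wild-type mice. For *Neurod6* they were at 209, 143, and 301 CPM against at most 176 CPM. For *Rgs14* they were at 97.0, 66.4, and 192 CPM against at most 88.7 CPM, and for *Fibcd1* at 384, 232, and 231 CPM against at most 105 CPM. KO3 was thus also above every wild-type mouse for *Wfs1* and *Fibcd1*, and KO2 for *Neurod6*, *Rgs14*, and *Fibcd1*. The part of each of these cell types in the results below was not tested.

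By limma, 0 of the 60 members passed both thresholds (FDR under 0.1, fold change above 1.3), against 176 of 14477 genes, or 1.22%. At an unadjusted p under 0.05 there were 11 members (18.3%), against 23.6% of all genes, and limma voom on the recovered reads also called 0 members, against 0.905% of all genes. The genotypes did not overlap in 10 members (16.7%), against 31.0% of all genes. Of these, *Col4a1*, *Col4a2*, *Col19a1*, *Col25a1*, and *Col26a1* (8.33%) were higher in Phf21bΔ4/Δ4 mice, against 15.0% of all genes, and *Lamb2*, *Lama5*, *Col8a2*, *Col15a1*, and *Col5a3* (8.33%) were lower, against 16.0%. The log2 fold change was above 0 in 22 members (36.7%, against 47.6% of all genes) and below 0 in 38, with a median of -0.16, whereas the median over all genes was -0.02. At the same time, 36 members (60.0%) differed by more than 1.3-fold in either direction, against 27.3% of all genes, and the median SE of a member was 0.37 against 0.14 for all genes. Members were also less abundant, with a median of the mean CPM of 5.19 against 24.6 for all genes, and median reads of 95.5 against 538. The part of this lower abundance in their larger fold changes and SEs was not tested. For 3 mice against 3, the smallest p that an exact permutation test can reach is 0.1.

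**Figure D1:**
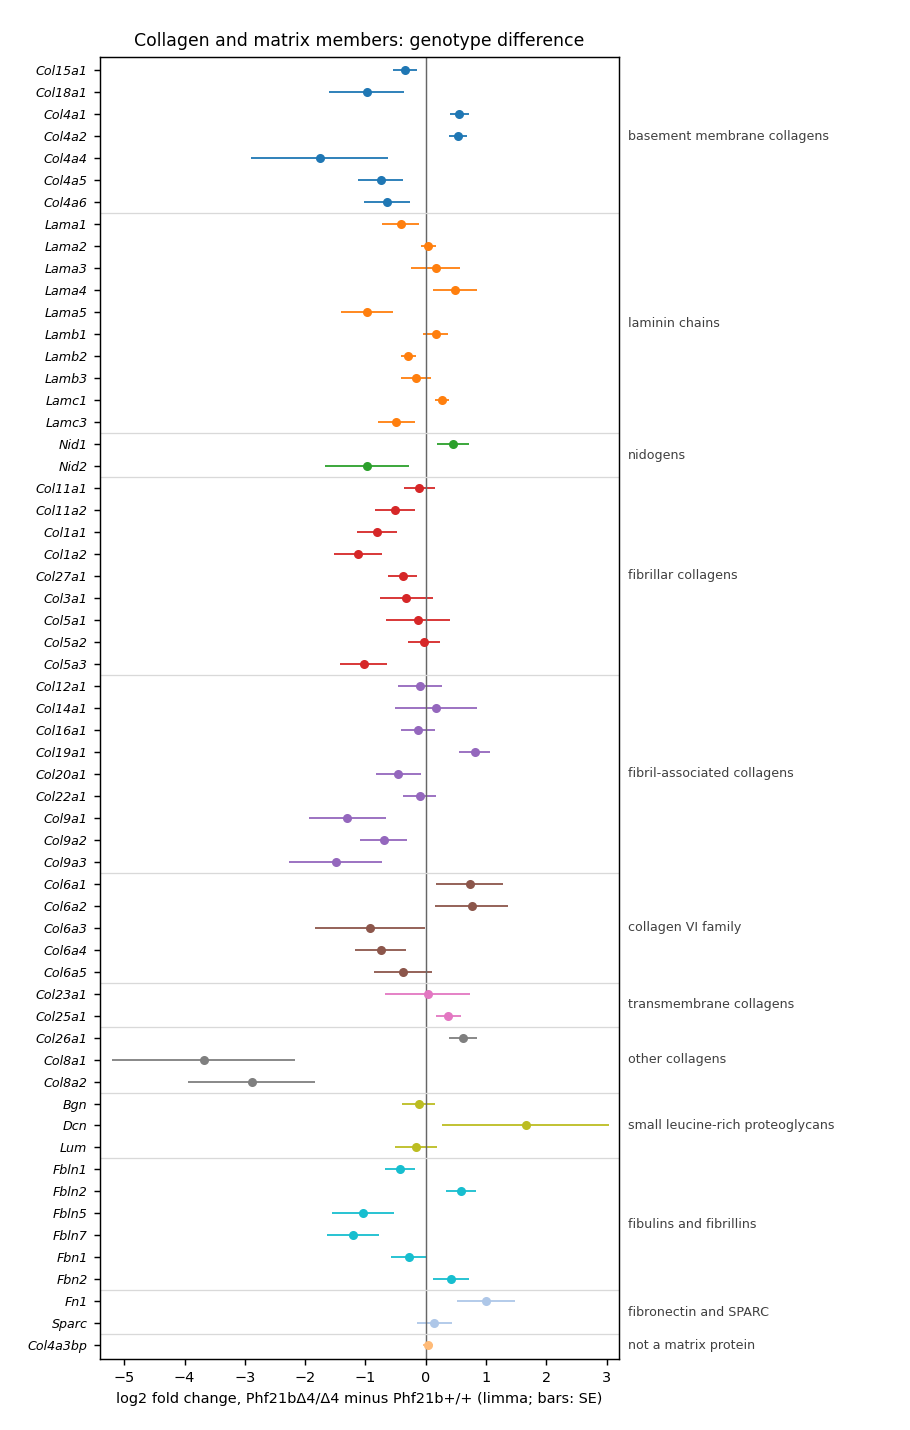
Log2 fold change (horizontal axis, Phf21bΔ4/Δ4 minus Phf21b+/+, limma) of 59 of the members, grouped by protein class, with bars for the SE. The values run from -3.68 for *Col8a1* to 1.66 for *Dcn*, and the bars are widest for *Col8a1*, *Dcn*, *Col4a4*, and *Col8a2*.

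The number of members called depended on 1 mutant mouse. Without KO6, 15 members (25.0%) were past both thresholds, when 19.5% of all genes were: *Sparc*, *Dcn*, *Col4a1*, *Lamc1*, *Fn1*, *Col4a2*, *Col19a1*, *Nid1*, *Lama4*, *Col6a1*, *Fbln2*, and *Col6a2* higher in Phf21bΔ4/Δ4 mice (12 members, where 10.3% of all genes were), and *Col11a2*, *Fbln7*, and *Col9a1* lower (3 members, where 9.29% of all genes were). Leaving out KO2, KO3, WT5, WT7, or WT8 gave 0 members, against 0.193%, 0.311%, 0.187%, 0.0967%, and 0.0622% of all genes. Without both KO6 and WT7, a choice made after seeing the data, there were 10 members (16.7%) and 14.3% of all genes. Limma's arrayWeights, which gave KO6 the lowest weight of the 6 mice (0.34, against 4.63 for WT8), called 25 members (41.7%) and 24.5% of all genes. KO6 was the lowest of the 6 mice in 25 members (41.7%), whereas it was the lowest in 14.3% of all genes.

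**Figure D2:**
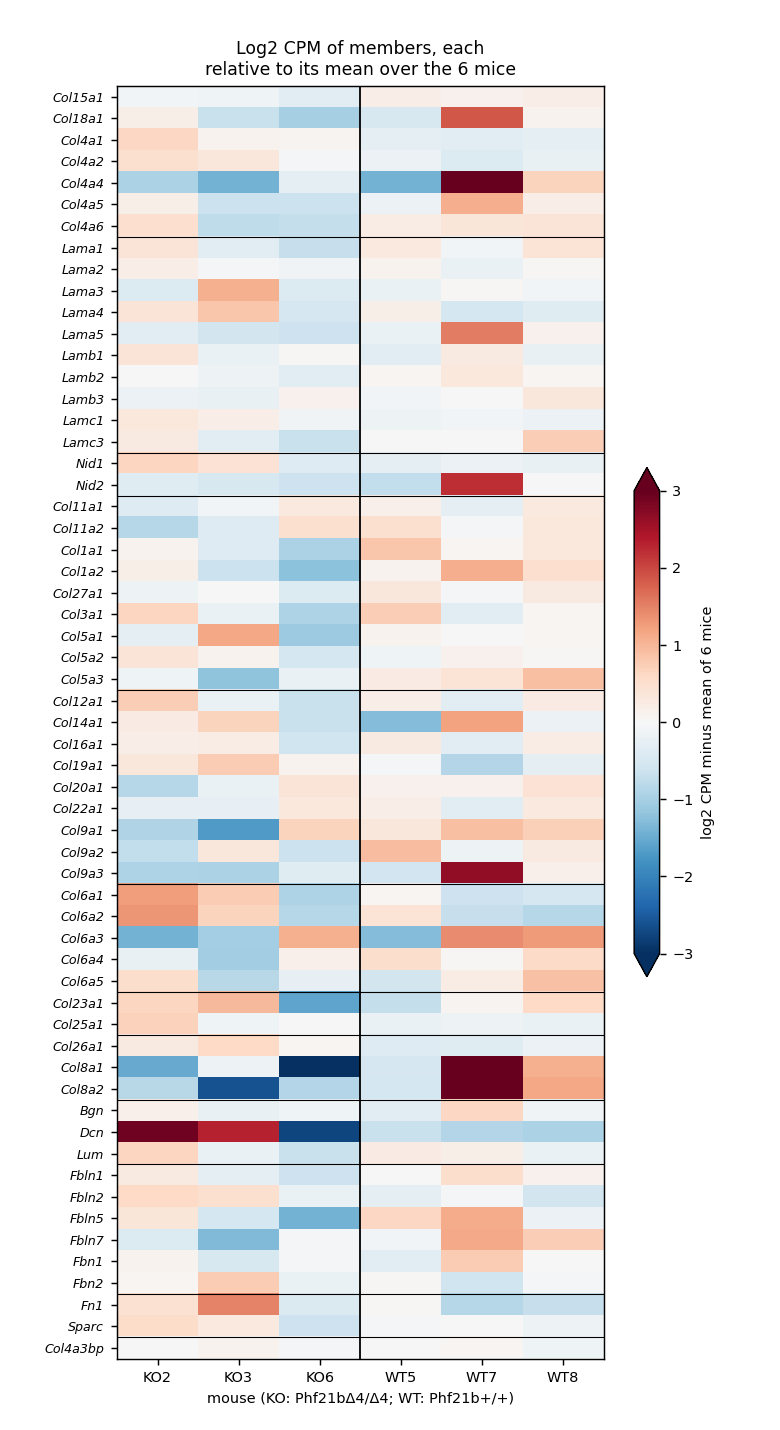
Log2 CPM of 59 of the members (rows, grouped by protein class as in the plot of fold changes) in each of the 6 mice (columns), minus the mean of that member over the 6 mice, with colors limited at -3 and 3. WT7 stands out in *Col8a1*, *Col8a2*, *Col9a3*, *Col4a4*, and *Nid2*, KO3 in *Fn1* and *Col5a1*, and KO6 among others in *Dcn* and *Col8a1*.

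Type IV collagen of the common basement membrane is a trimer of the chains encoded by *Col4a1* and *Col4a2*. *Col4a1* (chromosome 8, 11198423 to 11312826, minus strand, GRCm38) was at 51.4, 35.9, and 35.2 CPM in KO2, KO3, and KO6 and at 27.7, 26.8, and 27.5 CPM in WT5, WT7, and WT8. *Col4a2* (chromosome 8, 11312805 to 11449287, plus strand) was at 35.5, 32.6, and 25.1 CPM and at 22.7, 19.3, and 21.9 CPM in the same order. All 3 Phf21bΔ4/Δ4 mice lay above all 3 Phf21b+/+ mice in both genes, and KO2 was the highest mouse in both. The log2 fold changes were 0.56 (SE 0.15) for *Col4a1* and 0.53 (SE 0.15) for *Col4a2*, both with an FDR of 0.14 by limma. These FDRs ranged over the 16 alternatives from 0.013 to 0.36 for each gene, and both passed without KO6 (FDR 0.052 for *Col4a1* and 0.024 for *Col4a2*, limma). The ratio of *Col4a1* to *Col4a2*, each per kilobase of its exons, stayed between 0.97 and 1.28 in the 6 mice. Endothelial and pericyte marker sums were highest in KO2 as well. All 11 endothelial markers and 9 of the 10 pericyte and smooth muscle markers had a positive log2 fold change (medians 0.39 and 0.70). Of these lists, 5 and 4 markers were higher in every Phf21bΔ4/Δ4 mouse, against 15.0% of all genes. The part of these cells in the *Col4a1* and *Col4a2* differences was not tested.

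*Col4a1* and *Col4a2* are transcribed in opposite directions from annotated starts 21 bases apart, and their exons overlap over 22 bases. The RefSeq promoter windows (GRCm38.p6, 250 bases before to 50 after each start) are shown because they share 78 bases, given in capitals, once on each strand. The length of this shared stretch follows from the window chosen and the distance between the starts. The window of *Col4a1* is chr8:11312777-11313076 on the minus strand, and that of *Col4a2* is chr8:11312555-11312854 on the plus strand.
Col4a1: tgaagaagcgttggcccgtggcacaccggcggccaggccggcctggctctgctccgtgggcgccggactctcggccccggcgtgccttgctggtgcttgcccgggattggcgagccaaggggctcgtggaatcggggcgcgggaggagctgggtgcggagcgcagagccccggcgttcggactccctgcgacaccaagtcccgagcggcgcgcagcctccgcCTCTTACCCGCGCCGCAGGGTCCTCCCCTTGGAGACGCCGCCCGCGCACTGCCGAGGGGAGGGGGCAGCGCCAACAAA
Col4a2: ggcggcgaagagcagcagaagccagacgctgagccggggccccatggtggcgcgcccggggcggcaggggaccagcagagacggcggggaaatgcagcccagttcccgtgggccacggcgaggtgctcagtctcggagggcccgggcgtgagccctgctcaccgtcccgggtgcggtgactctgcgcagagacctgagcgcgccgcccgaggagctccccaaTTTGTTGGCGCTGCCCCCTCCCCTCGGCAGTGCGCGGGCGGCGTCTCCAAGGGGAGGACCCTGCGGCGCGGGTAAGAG

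The other 5 basement membrane collagens had log2 fold changes below 0. *Col4a5* and *Col4a6*, another head to head pair (1.31 kb apart on the X chromosome), had log2 fold changes of -0.75 (SE 0.38) and -0.65 (SE 0.39). *Col4a5* was at 6.33, 3.57, and 3.61 CPM in the KO mice and at 4.98, 11.9, and 6.47 CPM in the WT mice, so the genotypes overlapped through KO2 and WT5. *Col4a4* was at 0.46, 0.33, and 0.74 CPM in the KO mice and at 0.33, 9.37, and 1.44 CPM in WT5, WT7, and WT8, and *Col18a1*, the source of endostatin, was at 4.60, 2.57, and 2.04 CPM and at 2.90, 14.7, and 4.36 CPM. In both of them WT7 was the highest mouse, WT5 was below KO2, and the log2 fold change moved without WT7 from -1.76 to -0.51 for *Col4a4* and from -0.98 to -0.30 for *Col18a1*. The *Col4a4* values of KO2, KO3, KO6, and WT5 rest on 11, 7, 17, and 7 reads. *Col15a1*, found next to many basement membranes, was lower in every Phf21bΔ4/Δ4 mouse, at 1.73, 1.67, and 1.48 CPM against 2.09, 1.98, and 2.11 CPM (log2 fold change -0.35, SE 0.21, FDR 0.33 by limma).

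Laminins are trimers of an alpha, a beta, and a gamma chain. The gamma chain of most of them, *Lamc1*, was at 50.8, 47.1, and 38.2 CPM in KO2, KO3, and KO6 and at 37.0, 38.4, and 36.2 CPM in WT5, WT7, and WT8. Only KO6 lay within the wild-type range, just below WT7, and the log2 fold change was 0.28 (SE 0.12, FDR 0.21 by limma). *Lamb2*, the beta chain prominent in vessel walls and at synapses, was at 33.7, 29.9, and 26.8 CPM in the KO mice and at 34.4, 41.5, and 34.5 CPM in the WT mice. It was thus lower in every Phf21bΔ4/Δ4 mouse, with a log2 fold change of -0.29 (SE 0.12, FDR 0.21 by limma). *Lamb1*, the other abundant beta chain, overlapped between the genotypes at 67.3, 45.0, and 52.9 CPM and at 41.5, 62.2, and 44.2 CPM. The ratio of *Lamb2* to *Lamc1*, each per kilobase, was 0.90, 0.86, and 0.96 in the KO mice and 1.26, 1.47, and 1.3 in the WT mice, so the ratio did not overlap between genotypes (0.91 ± 0.05 and 1.34 ± 0.11, SD, n = 3), while that of *Lamb1* to *Lamc1* did (0.80 to 1.16 and 0.94 to 1.35). These ratios were chosen for description and were not tested.

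Among the alpha chains, *Lama2* of the vascular and glial basement membrane was at 30.8, 26.5, and 25.0 CPM in the KO mice and at 29.1, 23.4, and 27.7 CPM in the WT mice (log2 fold change 0.04, SE 0.12, 95% confidence interval -0.26 to 0.33). *Lama4*, a chain of endothelial laminin, was at 8.27, 11.1, and 4.44 CPM in KO2, KO3, and KO6 and at 7.12, 4.35, and 4.85 CPM in WT5, WT7, and WT8, so KO2 and KO3 lay above all wild-type mice and KO6 among them. *Lama5*, the other endothelial and epithelial chain, was at 7.72, 6.57, and 6.26 CPM against 8.30, 27.9, and 10.5 CPM. Every Phf21bΔ4/Δ4 mouse was below every Phf21b+/+ mouse for *Lama5*, though KO2 and WT5 were close, and the log2 fold change of -0.98 (SE 0.43) was -0.45 without WT7. *Lama1*, found in the meningeal basement membrane, was at 4.39, 2.67, and 2.09 CPM against 4.13, 3.17, and 4.45 CPM, and overlapped through KO2. *Lama3*, a chain of epithelial laminin, stood out in KO3 only, at 10.2 CPM against at most 4.98 CPM in each other mouse. Summed per kilobase, the alpha chains came to between 3.0 and 5.03 CPM per kb and the beta chains to between 9.67 and 13.4 in the 6 mice.

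The nidogens, which bridge laminin and type IV collagen, differed from each other. *Nid1* was at 8.60, 7.43, and 4.26 CPM in KO2, KO3, and KO6 and at 4.56, 4.94, and 4.72 CPM in WT5, WT7, and WT8, so that KO2 and KO3 lay above every wild-type mouse and KO6 below each of them (log2 fold change 0.45, SE 0.27, FDR 0.33 by limma). *Nid2* was at 4.47, 4.10, and 3.70 CPM and at 3.42, 26.6, and 5.66 CPM. The single high value was WT7, and without it the log2 fold change of *Nid2* was -0.11 in place of -0.98.

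**Figure D3:**
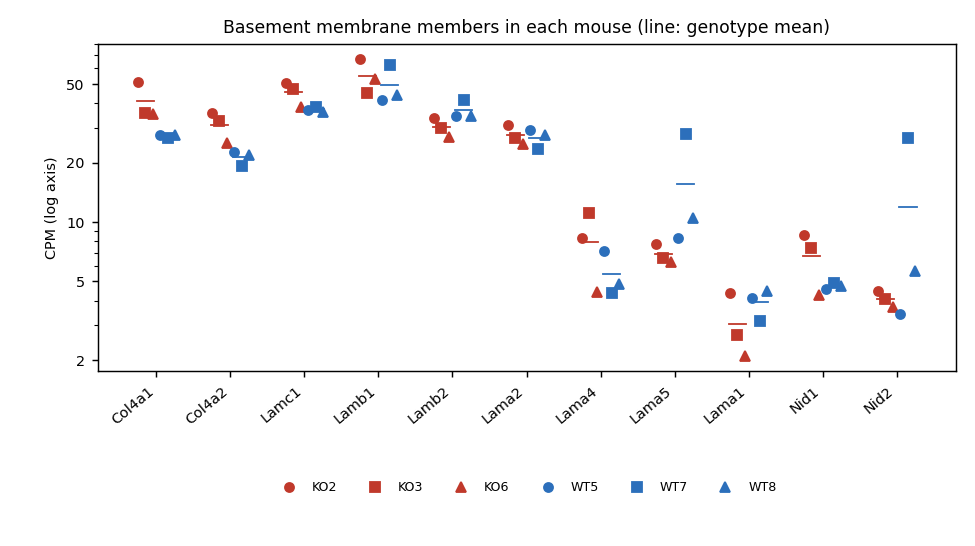
CPM (vertical log axis) of 11 basement membrane members in each mouse, red for Phf21bΔ4/Δ4 and blue for Phf21b+/+, with a line at each genotype mean. *Col4a1* and *Col4a2* separate the genotypes upward and *Lamb2* and *Lama5* downward, while WT7 alone is high in *Nid2* at 26.6 CPM.

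All 9 fibrillar collagens had a negative log2 fold change, from -1.12 to -0.03 with a class median of -0.38, and none was past the thresholds. This shared direction depended on KO6. Without it, the log2 fold change was above 0 in *Col5a1* (0.38), *Col5a2* (0.23), and *Col3a1* (0.060), and below 0 in the others. The summed level of all 9 was 42.9, 40.9, and 42.8 CPM in KO2, KO3, and KO6 and 61.0, 58.1, and 59.2 CPM in WT5, WT7, and WT8, so the sum did not overlap although most single genes did. *Col1a2*, the alpha 2 chain of type I collagen, was at 11.5, 6.53, and 4.35 CPM in the KO mice and at 10.9, 21.6, and 14.3 CPM in the WT mice. Only KO2 reached into the wild-type range, and the log2 fold change was -1.12 (SE 0.40, FDR 0.17 by limma). *Col1a1*, the alpha 1 chain of the same trimer, was at 3.46, 2.43, and 1.65 CPM against 5.69, 3.33, and 4.0 CPM (log2 fold change -0.82, SE 0.33, FDR 0.20 by limma), again with KO2 in the wild-type range. The ratio of *Col1a2* to *Col1a1* per kilobase, with textbook type I collagen holding more alpha 1 than alpha 2 chains, was above 1 in every mouse, from 1.01 in WT5 to 3.42 in WT7. The level of this ratio depends on the merged exon lengths used, which were 12426 bases for *Col1a2* and 6563 for *Col1a1*. *Col3a1*, the chain of type III collagen, overlapped at 5.78, 3.24, and 1.96 CPM and at 6.17, 3.0, and 3.87 CPM. *Col5a3*, a minor chain of type V collagen, was at 1.10, 0.52, and 1.04 CPM in the KO mice and at 1.42, 1.6, and 2.25 CPM in the WT mice and did not overlap (log2 fold change -1.03, SE 0.39, FDR 0.19 by limma). Its KO3 value rests on 11 reads. *Col11a2*, a chain of type XI collagen that takes a large share of the class sum, was at 9.87, 13.7, and 24.9 CPM in KO2, KO3, and KO6 and at 24.8, 17.5, and 22.3 CPM in WT5, WT7, and WT8, so KO6 was the highest of all mice and KO2 and KO3 the lowest. *Col5a1* was at 5.57 CPM in KO3 and at no more than 2.71 CPM in each other mouse. The summed level of meningeal fibroblast markers, most of it *Ptgds*, was lower in every Phf21bΔ4/Δ4 mouse too. Of these 13 markers, 8 were lower without overlap, against 16.0% of all genes, and 5 overlapped (*Foxc1*, *Slc6a13*, *Slc6a20a*, *Mgp*, and *Foxp2*), among which *Mgp* was highest in KO2. Their part in the lower fibrillar collagens was not tested.

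Of the 9 fibril-associated collagens, which decorate fibrils or bridge them to other proteins, 7 had a negative and 2 a positive log2 fold change. *Col19a1*, a collagen made by some neurons, was at 20.8, 27.9, and 17.5 CPM in KO2, KO3, and KO6 and at 15.6, 8.90, and 13.6 CPM in WT5, WT7, and WT8. Every Phf21bΔ4/Δ4 mouse was above every Phf21b+/+ mouse, with a log2 fold change of 0.81 (SE 0.25, FDR 0.16 by limma) and FDRs from 0.029 to 0.36 over the alternatives. Its neighbor *Col9a1*, 9.20 kb away on chromosome 1, was at 0.34, 0.19, and 1.0 CPM in the KO mice and at 0.81, 1.18, and 1.03 CPM in the WT mice (log2 fold change -1.3, SE 0.65), of which the KO3 value rests on 4 reads. The partner chain *Col9a3* was at 11.2, 11, and 16.7 CPM against 14.4, 134, and 23.7 CPM. WT7 was 5.65 times the next highest mouse in *Col9a3*, and KO6 was above WT5, so the genotypes overlapped. The log2 fold change of *Col9a3* was -1.49 (SE 0.77), and -0.54 without WT7. *Col9a2*, *Col12a1*, *Col14a1*, *Col16a1*, *Col20a1*, and *Col22a1* overlapped between the genotypes, with log2 fold changes between -0.70 and 0.18.

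Type VI collagen is built from 1 chain each of *Col6a1*, *Col6a2*, and another chain, most often *Col6a3*. *Col6a1* was at 8.22, 5.91, and 1.83 CPM in KO2, KO3, and KO6 and at 3.61, 2.24, and 2.43 CPM in WT5, WT7, and WT8. *Col6a2*, 85.2 kb from it on chromosome 10, was at 6.12, 3.91, and 1.35 CPM and at 3.23, 1.52, and 1.35 CPM. KO2 and KO3 lay above all wild-type mice in both genes, and KO6 lay below or level with them, and the log2 fold changes were 0.73 (SE 0.55) and 0.76 (SE 0.61), with FDRs of 0.43 and 0.45 by limma. *Col6a3* split the mice in another way, at 1.77, 2.33, and 9.96 CPM in KO2, KO3, and KO6 and at 1.95, 12.7, and 11.5 CPM in WT5, WT7, and WT8. KO6, WT7, and WT8 were thus high and KO2, KO3, and WT5 low, which is not a split by genotype (log2 fold change -0.92, SE 0.91). The ratio of *Col6a1* to *Col6a2* per kilobase stayed between 2.12 and 3.42 in the 6 mice, whereas that of *Col6a3* to *Col6a1* ran from 0.08 in KO2 to 2.07 in WT7, a 26.3-fold range. The level of such a ratio depends on the merged exon lengths used, which were 4380 bases for *Col6a1* and 8326 for *Col6a2*.

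The transmembrane collagen *Col25a1*, a neuronal protein that binds amyloid beta, was at 177, 101, and 109 CPM in KO2, KO3, and KO6 and at 95.2, 98.1, and 96.3 CPM in WT5, WT7, and WT8. The wild-type values lay within 1.03-fold of each other, KO3 was just above the highest of them, and KO2 stood far above all others (log2 fold change 0.37, SE 0.20, FDR 0.30 by limma, and 0.12 without KO2). *Col23a1*, the other transmembrane collagen listed, ranged from 2.48 CPM in KO6 to 14.7 CPM in KO3 and had a log2 fold change of 0.03 (SE 0.70). *Col26a1* was at 2.15, 2.71, and 1.87 CPM in the KO mice and at 1.38, 1.39, and 1.57 CPM in the WT mice, without overlap (log2 fold change 0.62, SE 0.24, FDR 0.19 by limma).

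The largest log2 fold changes of any member were those of the chains of type VIII collagen, a short-chain network collagen of vessels and of the basement membrane below the corneal endothelium. *Col8a1* was at 1.14, 2.91, and 0.22 CPM in KO2, KO3, and KO6 and at 2.28, 100, and 6.83 CPM in WT5, WT7, and WT8. *Col8a2* was at 5.57, 1.62, and 5.35 CPM and at 6.88, 128, and 22.3 CPM in the same order. WT7 was 14.7 times the next highest mouse for *Col8a1* and 5.73 times for *Col8a2*, and WT8 was second in both. The log2 fold changes were -3.68 (SE 1.51, FDR 0.20 by limma) and -2.89 (SE 1.05, FDR 0.18 by limma), and they were -2.13 and -1.77 without WT7. The KO6 value of *Col8a1* rests on 5 reads, and without both KO6 and WT7 the log2 fold changes were -1.11 and -2.04. The choroid plexus marker sum ordered the top mice in the same way, with 16384 CPM in WT7, 1041 CPM in WT8, and at most 93.6 CPM in each other mouse, led by *Ttr*, the thyroxine carrier transthyretin. Its part in the type VIII collagen values was not tested. In WT5, with a choroid plexus sum of 38.8 CPM, *Col8a1* was between KO2 and KO3, and *Col8a2* was above each KO mouse. In all, WT7 was at least 2-fold above every other mouse in 7 members (*Col8a1*, *Col8a2*, *Col4a4*, *Col9a3*, *Nid2*, *Col18a1*, and *Lama5*), or 11.7%, against 1.93% of all genes.

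**Figure D4:**
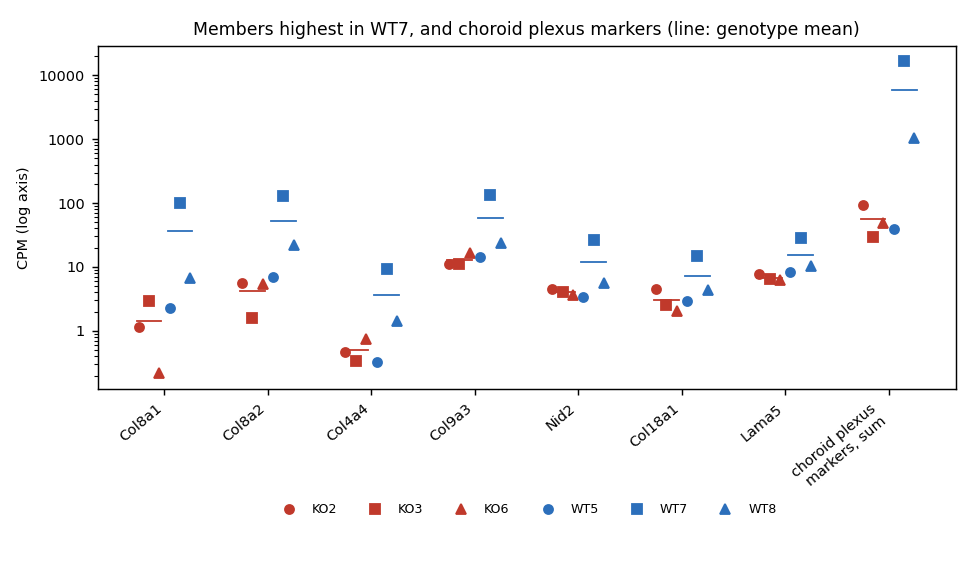
CPM (vertical log axis) of the 7 members that were at least 2-fold higher in WT7 than in each other mouse, and the summed CPM of 14 choroid plexus markers, with red for Phf21bΔ4/Δ4, blue for Phf21b+/+, and a line at each genotype mean. WT7 is at the top of each column and WT8 is second in all columns except *Col18a1*.

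The RefSeq promoter windows of both type VIII chains are shown because these genes had the largest differences and the same leading mouse. Capitals mark GGGCGG and its reverse complement CCGCCC, of which each window holds 4, and 2 of those in *Col8a2* overlap, so that their capitals run together. That of *Col8a1* is chr16:57754688-57754987 on the minus strand, and that of *Col8a2* is chr4:126286544-126286843 on the plus strand (GRCm38.p6).
Col8a1: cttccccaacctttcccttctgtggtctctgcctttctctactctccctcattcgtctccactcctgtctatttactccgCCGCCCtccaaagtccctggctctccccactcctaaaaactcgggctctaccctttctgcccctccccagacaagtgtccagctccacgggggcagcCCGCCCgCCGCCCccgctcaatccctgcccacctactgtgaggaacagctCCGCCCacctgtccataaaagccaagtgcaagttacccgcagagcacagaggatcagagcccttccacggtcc
Col8a2: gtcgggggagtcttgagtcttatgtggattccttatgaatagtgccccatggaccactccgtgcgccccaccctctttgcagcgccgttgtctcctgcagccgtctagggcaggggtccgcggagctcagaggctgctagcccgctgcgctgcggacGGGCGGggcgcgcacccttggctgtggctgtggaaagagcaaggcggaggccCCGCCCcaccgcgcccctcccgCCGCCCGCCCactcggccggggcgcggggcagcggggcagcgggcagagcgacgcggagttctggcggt

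A RefSeq promoter of this length was matched for 41 members. GGGCGG on either strand was in 28 of them (68.3%), against 35.9% of all 27025 promoters in the table. CCAAT on either strand was in 14 (34.1%), against 37.9% of all, and TATAAA on either strand in 2, *Col3a1* and *Col11a2* (4.88%), against 14.2%. The 27025 promoters were not limited to the 14477 genes of the expression matrix, so the members and this background are unlike sets. These are matches of letters in a window, counted once per promoter, and no member was chosen by them.

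Decorin, a small leucine-rich proteoglycan that binds collagen fibrils, had the widest spread of any member among the mutant mice. *Dcn* was at 152, 101, and 3.0 CPM in KO2, KO3, and KO6 and at 12.8, 11, and 10.4 CPM in WT5, WT7, and WT8. KO2 and KO3 lay far above and KO6 below the narrow wild-type range, a 50.7-fold range within 1 genotype against 1.23-fold in the other. The log2 fold change was 1.66 (SE 1.39, FDR 0.47 by limma), and 3.45 without KO6 (FDR 0.0021 by limma, with a range over the alternatives of 0.0021 to 0.82). Lumican, a related proteoglycan encoded 47.0 kb away, did not share this pattern, since *Lum* was at 5.23, 2.91, and 2.09 CPM in the KO mice and at 3.99, 3.80, and 2.92 CPM in the WT mice. *Bgn*, biglycan, was at 4.81, 3.72, and 3.96 CPM against 3.42, 6.58, and 4.0 CPM. Both overlapped between the genotypes, and their log2 fold changes of -0.16 (SE 0.35) and -0.12 (SE 0.27) changed sign in 4 alternatives each. The ratio of *Dcn* to *Lum* per kilobase was 12.2 in KO2, 14.5 in KO3, and 0.60 in KO6, and between 1.22 and 1.49 in the wild-type mice. The meningeal fibroblast sum, most of it *Ptgds*, was 165, 150, and 163 CPM in KO2, KO3, and KO6. Single markers of that list did not share 1 order among the mutant mice. *Mgp* (9.28, 4.62, and 4.26 CPM), *Slc6a20a* (8.73, 6.0, and 4.18 CPM), *Foxc1* (3.75, 2.48, and 1.87 CPM), *Aldh1a2*, and *Slc6a13* were highest in KO2 and lowest in KO6. In contrast, *Ptgds* (121, 117, and 129 CPM), *Islr* (5.19, 4.05, and 8.53 CPM), *Ogn*, *Slc13a4*, and *Crabp2* were highest in KO6. *Foxp2* was highest in KO3, and *Slc22a6* and *Gjb2* were highest in KO2 but lowest in KO3. The pericyte and smooth muscle sum was highest in KO2 and lowest in KO6 (311, 246, and 179 CPM), led by *Rgs5* (153, 118, and 77.9 CPM). *Rgs5*, *Pdgfrb*, *Abcc9*, *Vtn*, *Myh11*, and *Higd1b* had this order. *Acta2* (10.6, 3.72, and 5.65 CPM), *Tagln*, and *Kcnj8* were instead lowest in KO3, and *Cspg4* was highest in KO3. The dentate granule cell markers given above also split KO2 and KO3 from KO6. The part of these cell types in the *Dcn* values was not tested.

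Fibronectin, a plasma and matrix glycoprotein that binds integrins, was at 42.3, 86.1, and 22.8 CPM (*Fn1*) in KO2, KO3, and KO6 and at 31.7, 17.1, and 19.1 CPM in WT5, WT7, and WT8. KO3 was more than 2-fold above each other mouse, KO2 was second, and KO6 lay within the wild-type range (log2 fold change 1.0, SE 0.48, FDR 0.25 by limma). *Sparc*, a collagen-binding glycoprotein made in the brain by astrocytes, microglia, and endothelium, was at 373, 308, and 163 CPM and at 244, 252, and 228 CPM. KO2 and KO3 were above and KO6 below all wild-type mice, and the log2 fold change was 0.14 (SE 0.29, FDR 0.78 by limma). KO3 was at least 2-fold above every other mouse in 4 members (6.67%), *Fn1*, *Lama3*, and *Col5a1* among them, against 0.787% of all genes.

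Fibulins and fibrillins, proteins of elastic fibers and microfibrils, went in both directions. *Fbln7* was at 2.45, 1.29, and 3.09 CPM in KO2, KO3, and KO6 and at 3.04, 7.17, and 5.44 CPM in WT5, WT7, and WT8, with KO6 just above WT5 (log2 fold change -1.20, SE 0.43, FDR 0.18 by limma). *Fbln2*, found in vessel walls, was at 7.42, 6.81, and 4.31 CPM against 3.99, 4.77, and 3.37 CPM, and overlapped through KO6 and WT7 (0.59, SE 0.25, FDR 0.22 by limma). *Fbln5* had a log2 fold change of -1.04 (SE 0.51) and *Fbln1* of -0.43 (SE 0.25). *Fbn1* at -0.28 (SE 0.30) and *Fbn2* at 0.41 (SE 0.30) overlapped between the genotypes.

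**Figure D5:**
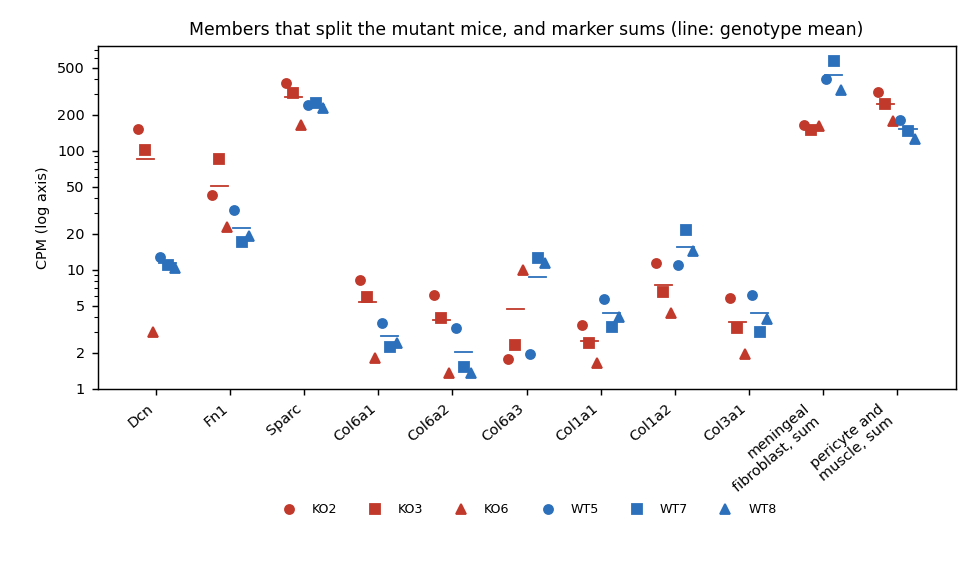
CPM (vertical log axis) of 9 members in which the Phf21bΔ4/Δ4 mice (red) spread, with the summed CPM of meningeal fibroblast markers and of pericyte and smooth muscle markers, Phf21b+/+ mice in blue, and a line at each genotype mean. In *Dcn*, KO2 and KO3 are at 152 and 101 CPM and KO6 at 3.0 CPM. The pericyte and smooth muscle sum is 311, 246, and 179 CPM and the meningeal sum 165, 150, and 163 CPM in KO2, KO3, and KO6.

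Levels can be compared between genes only per length of exon. The length used merges all annotated exons of a gene, so the order of the genes depends on it. On the scale of mean CPM per kb of merged exons over the 6 mice, *Sparc* was highest at 69.0, followed among the matrix members by *Col9a3* (9.12), *Col25a1* (8.71), *Dcn* (8.27), and *Col8a2* (6.30). The mean of *Col9a3* was 3.36 CPM per kb in Phf21bΔ4/Δ4 mice and 14.9 in Phf21b+/+ mice, that of *Col8a2* was 0.93 and 11.7, and that of *Dcn* was 14.6 and 1.95, so the place of these 3 genes in the order rested on WT7 or on KO2 and KO3. The laminin chains *Lamb2* (5.50), *Lamb1* (5.26), and *Lamc1* (4.99) and the collagen chains *Col4a1* (4.57) and *Col4a2* (3.96) came next, and the ranges of these 5 over the 6 mice overlapped, whereas *Sparc* was above every other member in each mouse. The chains of type I collagen were at 0.93 CPM per kb (*Col1a2*) and 0.52 CPM per kb (*Col1a1*), and *Col6a4* was lowest at 0.098. *Col4a3bp*, the ceramide transfer protein taken by its symbol, was at 97.1, 106, and 94.6 CPM in the KO mice and at 98.8, 103, and 90.2 CPM in the WT mice (log2 fold change 0.03, SE 0.08), the smallest SE of any member.

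Of the lists of genes that act with the matrix, 2 genes were past both thresholds, both in the list of other connective tissue matrix proteins. *Fmod*, fibromodulin, which binds collagen fibrils, was at 1.94, 1.33, and 1.26 CPM in KO2, KO3, and KO6 and at 4.75, 4.22, and 3.19 CPM in WT5, WT7, and WT8 (log2 fold change -1.43, SE 0.26, FDR 0.096 by limma). *Aebp1*, a secreted carboxypeptidase-like protein that binds collagen, was at 8.31, 6.53, and 6.83 CPM and at 14.7, 23.8, and 21.3 CPM (-1.44, SE 0.20, FDR 0.065 by limma). Both fell in Phf21bΔ4/Δ4 mice, 2 of the 23 listed genes of that list, where 1.22% of all genes were called, with 10 above 0 and 13 below 0 in log2 fold change. Without KO2, KO3, WT7, or WT8, 0 genes of all 6 lists were past the thresholds, and without WT5 there was 1, where 0.0622% to 0.311% of all genes were called. Without KO6 there were 33, where 19.5% of all genes were called.

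No gene of the other 5 lists was past the thresholds. Of the 22 listed enzymes that fold, modify, and cleave collagen, 17 had a negative log2 fold change, 6 were lower in every Phf21bΔ4/Δ4 mouse, and 2 (*Plod3* and *Adamts3*) were higher in every one, against 16.0% and 15.0% of all genes. *P4hb*, a subunit of prolyl 4-hydroxylase, was the most abundant (-0.14, SE 0.09). Of 26 matrix receptors, 17 were negative and 9 positive, 5 were lower and 2 higher in every Phf21bΔ4/Δ4 mouse, with the integrin *Itgb8* at -0.57 (SE 0.20). Of 19 proteases and inhibitors, 10 were negative and 9 positive, 1 was lower and 2 were higher in every Phf21bΔ4/Δ4 mouse, with *Mmp17* at 0.23 (SE 0.13). Of the 13 proteins of perineuronal nets and brain matrix, which neurons and glia make, 11 were positive and 2 negative, and 3 were higher and 0 lower in every Phf21bΔ4/Δ4 mouse, against 15.0% and 16.0% of all genes. *Ptprz1*, a receptor phosphatase and proteoglycan of glia, was at 0.18 (SE 0.15). Of 12 other basement membrane proteins, 8 were negative and 4 positive, with 1 higher and 1 lower in every Phf21bΔ4/Δ4 mouse. The higher one was *Agrn*, agrin, the most abundant of the list (0.41, SE 0.11, FDR 0.14 by limma), and the lower one was *Npnt*, nephronectin (-0.92, SE 0.24, FDR 0.14 by limma), which was at 11, 15.9, and 22.7 CPM in the KO mice and at 30.9, 29, and 30.3 CPM in the WT mice.

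Members that neighbor each other on a chromosome did not always share a pattern. There were 11 pairs less than 1 Mb apart, with 20 members in them. The ratio of the CPM of both genes varied least over the 6 mice for *Col4a1* and *Col4a2* (1.32-fold), then for *Col6a2* and *Col6a1* (1.61-fold) and *Col4a6* and *Col4a5* (2.18-fold). It varied most for *Dcn* and *Lum* (24.1-fold), *Col9a1* and *Col19a1* (19.4-fold), and *Col6a1* and *Col18a1* (15.1-fold). In 18 members an exon is overlapped by another annotated gene, 4 of them over at least 5% of the exon bases (*Col9a3*, *Nid2*, *Fbn1*, and *Lamc3*), and where counting did not use strand the reads of such genes cannot be told apart. In 7 members at least 1 mouse had under 20 reads.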

How the data were processed

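The authors deposited 1 matrix of log2 CPM, with 14477 genes in rows and 6 hippocampal libraries in columns. By the study's methods and the submitters' processing notes, reads were trimmed with Trimmomatic 0.39, mapped to GRCm38 with STAR 2.7.3a, summarized over GENCODE genes by featureCounts (Subread 1.6.4), filtered by the authors for CPM of 1 or more in 2 or more samples, and scaled to effective library size by the authors' edgeR run. The prior count and strandedness are not given in the sources used here. Values were taken back to reads, 100% of those up to 1000 reads whole within 0.1. This scaling can shift all genes of a mouse alike, and genes under the filter are not seen.

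Genotype was tested on these log2 CPM by limma 3.58.1 (R 4.3.3, lmFit and eBayes, trend, 2-sided, no covariate, Benjamini-Hochberg over all genes) at the study's thresholds of FDR 0.1 and 1.3-fold. Gene positions and exon lengths are from GENCODE M21 of GRCm38, and promoters from RefSeq.

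Members and lists were chosen with earlier results of these data known, and the lists were written from general knowledge. Values of each mouse are given for members past the thresholds, the 10 with the highest mean CPM, the 6 largest increases and decreases, and subunits of shared networks, as well as for some further members of each class. Of the lists, genes past the thresholds are named, and the most abundant gene of each matrix list without such a gene. Some further list genes are named with their values already known. The values of 1 member are not reported here. *Ogn* is on both the meningeal and the connective tissue list. Alternatives were a constant prior variance, robust empirical Bayes, arrayWeights, genes of mean log2 CPM 1 and up, pseudocounts of 1 and 0.1 on CPM, quantile normalization, median centring, voom on recovered reads, an FDR of 0.05, no fold threshold, each mouse left out, and KO6 and WT7 left out together. Python 3.11.15, pandas 2.3.3, NumPy 2.4.6, and matplotlib 3.10.9 were used.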

Additional observations from a re-analysis of the deposited data

How the results depend on the processing

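No paired analysis was possible because the labels give no litter or batch by which mice could be paired. With 1 mouse left out at a time, the number of all genes past the thresholds ran from 9 to 2830, that of members from 0 to 15, that of genes on the 6 matrix lists from 0 to 33, and the log2 fold change of *Phf21b* from -1.12 to -0.70, past the FDR threshold only without KO6 (FDR 0.0497, with a range of 0.012 to 0.36 over the alternatives). ArrayWeights gave 3549 genes, 25 members, 36 list genes, and -1.32 for *Phf21b*. Without KO6 and WT7, these were 2066, 10, 29, and -1.23. All genes were 75 with a constant prior variance, 101 for genes of mean log2 CPM 1 and up, and 25 at an FDR of 0.05. List genes were 1 with a constant prior variance, robust empirical Bayes, the same filter, quantile normalization, centring, and voom, and 0 at an FDR of 0.05. The median of members stayed below 0, between -0.31 and -0.02. Of the 32 members with values in each mouse by rule, 26 kept their sign in all alternatives run. For the other 6, leaving out mice gave log2 fold changes from -0.10 to 0.52 for *Sparc*, from -0.023 to 0.11 for *Col4a3bp*, from -0.055 to 0.10 for *Lama2*, from -0.72 to 0.060 for *Col3a1*, from -0.52 to 0.19 for *Lum*, and from -0.31 to 0.19 for *Bgn*. The sign turned without KO2 for *Sparc* and *Lama2* (-0.049), without KO3 for *Col4a3bp* (-0.020), without KO6 for *Col3a1* and *Lum* (0.14), without WT7 for *Lama2* and *Bgn* (0.16), without WT8 for *Col4a3bp*, and without KO6 and WT7 for *Lum* and *Bgn*. It also turned with arrayWeights for *Col3a1* (0.16), *Lum* (0.42), and *Bgn* (0.13), and with quantile normalization for *Sparc* (-0.049), *Col4a3bp* (-0.055), *Lum* (0.12), and *Bgn* (0.14). The causes were not tested. Depth limits the lowest values, of which the smallest was 4 reads.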
